A study of Drosophila melanogaster with 6 samples.

Results

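Neuropeptide precursors and the genes that process them were followed in whole Drosophila melanogaster embryos that carried a lola-O mutation. The set was given by name and held 31 genes: 28 precursors of neuropeptides and peptide hormones, the transcription factor gene dimm and the processing enzyme genes Phm and amon. Of these, 30 were found by their FlyBase symbol among 17559 gene identifiers. The current identifier of Phm, the enzyme that starts peptide amidation, was not in the count tables, so Phm was not analysed here. The expression filter kept 28 of the 30 genes, and amn and Ilp5 fell below it.

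The mutant group had 3 samples of genotype lola-O over the deficiency Df(2R)ED2076, and the control group had 3 samples labelled Wild type over that deficiency, which both groups therefore carry. The locus lola encodes BTB zinc-finger transcription factors. All embryos were 20 to 22 hours old, counted from egg laying, and according to the protocol each sample pooled 100 of them. The extract protocol names mutant embryos for every sample, so groups were taken from titles and genotypes. The descriptions call every control sample replicate 1, whereas the titles number them 1 to 3. The labels do not tell whether replicates are independent collections, so the p-values reflect sample-to-sample variation that may be only technical. Polyadenylated RNA was sequenced, with 16217213 to 20518120 counts per mutant library and 17480430 to 22759638 per control library. Counts are per gene and do not measure a single lola isoform, so they do not check the genotype.

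A neuropeptide begins as a longer precursor protein that enters the secretory pathway. The precursor is cut at pairs of basic residues, by the prohormone convertase encoded by amon among others, and many of the peptides are then amidated at the carboxyl end. Peptides are packed into dense core vesicles and act mostly through G protein-coupled receptors. The basic helix-loop-helix factor dimm promotes the secretory character of peptidergic cells. Many of these precursors are made by few cells, and in RNA from whole embryos fewer cells of a type cannot be told apart from less RNA per cell.

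The precursors were present at graded levels. Levels of different genes are given as TPM, counts per kilobase of the longest annotated transcript scaled to 1000000 per library. Dh31, which encodes a calcitonin-like diuretic hormone, was highest of the named set in both groups, with 53.1 ± 0.317 TPM in mutants and 56.0 ± 1.41 TPM in controls (SD, n = 3 each). Nplp1 ranked 2 in mutants at 45.8 ± 1.5 TPM, and 4 in controls at 36.8 ± 0.359 TPM. AstC, an allatostatin precursor, had 45.0 ± 1.92 TPM in mutants and 48.2 ± 2.76 TPM in controls. The convertase gene amon had 39.2 ± 1.17 TPM in mutants and 41.1 ± 1.44 TPM in controls, in the same range as the most abundant precursors. At the other end, Ilp3 had 1.27 ± 0.349 TPM in mutants and 1.09 ± 0.574 TPM in controls, and dimm had 1.5 ± 0.0759 TPM in mutants and 1.59 ± 0.238 TPM in controls. Summed over the 28 precursors, the level was 496 to 508 TPM in the mutant samples and 504 to 528 TPM in the control samples, so the groups overlapped on that scale. As CPM, which are not divided by length, the same sum was 395 to 404 in mutants and 380 to 388 in controls. There all mutants lay above all controls. Nplp1 was part of that sum, with 73.6 ± 2.5 CPM in mutants and 56.4 ± 0.51 CPM in controls (SD, n = 3 each). Of the 26 tested precursors, 13 had a log2 fold change above 0 and 13 below. The separation of the sum therefore does not show higher levels of precursors as a class. Among the listed precursors outside the set that had counts, Nplp4 alone was above Dh31. It had 467 ± 31.5 TPM in mutants and 448 ± 52.5 TPM in controls (SD, n = 3 each). Nplp2 and SPAB were not found in the counts and were not analysed here.

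**Figure D1:**
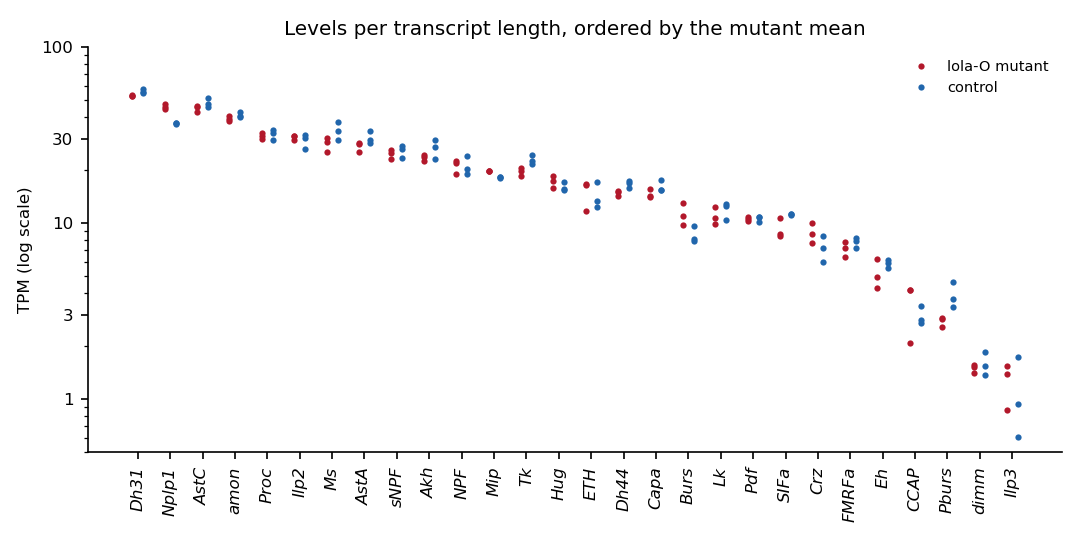
Each point is the TPM of a neuropeptide gene in 1 sample, on a log scale, with mutants (red) left of controls (blue) and genes ordered by the mutant mean. Of the named genes Dh31 leads in both groups, Ilp3 and dimm are lowest, and most pairs of groups overlap.

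Nplp1 and Burs passed the test between mutants and controls, and both were higher in mutants. Changes were tested with edgeR's quasi-likelihood test over all 10312 tested genes, and a gene passed at a Benjamini-Hochberg adjusted p below 0.05. In that fit 39.7% of all tested genes passed, 20.2% higher and 19.5% lower. Of the 28 tested neuropeptide genes, 2 rose, 0 fell and 26 did not pass, a share of 7.14%. At an unadjusted edgeR p under 0.05, 3 of the 28 were higher and 2 lower. By that measure 2439 of all 10312 tested genes were higher and 2349 lower. DESeq2 called 1 neuropeptide gene higher and 0 lower, beside 1529 higher and 1476 lower over all genes.

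The neuropeptide genes were less abundant than tested genes at large. The median of the mean CPM (TMM-scaled counts per 1000000) was 7.47 for the tested neuropeptide genes and 23.3 for all tested genes, and the median SE of the log2 fold change was 0.115 for the neuropeptide genes and 0.0665 for all. Among the 8465 tested genes within the range of mean CPM of the neuropeptide genes, 33.1% passed. Among the 3407 tested genes within their interquartile range, 3.55 to 22.4 CPM, 24.8% passed. The median log2 fold change was -0.0091 over the 28 genes and 0.0010 over all tested genes, with 13 of the 28 above 0 and 15 below. The values ran from -0.43 for Pburs to 0.45 for Burs. By role, 1 of 13 tested genes grouped as feeding, gut and other peptides passed, Nplp1, and 1 of 5 ecdysis peptides, Burs. None of 4 metabolic hormones, 3 diuretic hormones, Pdf, dimm or amon passed.

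**Figure D2:**
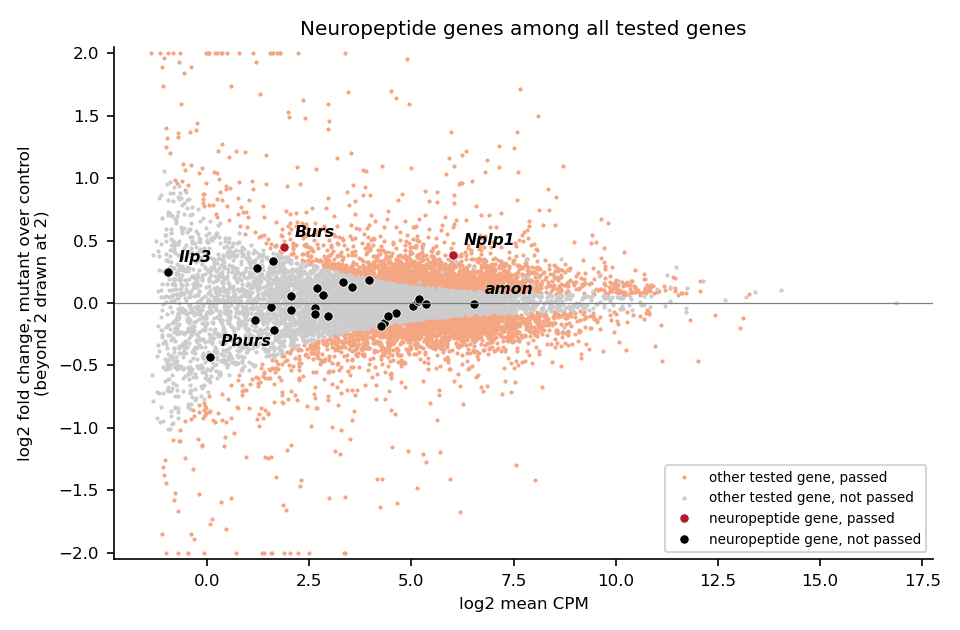
Each point is a tested gene, by log2 mean CPM on the x axis and log2 fold change of mutant over control on the y axis, with values beyond 2 drawn at 2. The neuropeptide genes (large points) lie in the lower and middle range of abundance, and Nplp1 and Burs are the pair that passed.

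Nplp1 had the smallest adjusted p of the set. It lies on 2R (25032377 to 25040377, plus strand, BDGP6.54) and encodes a precursor of several short peptides, made in a subset of the apterous-expressing neurons of the ventral nerve cord. The gene had 71.9, 76.5 and 72.4 CPM in mutants 1 to 3, against 56.7, 56.8 and 55.8 CPM in controls 1 to 3. Every mutant lay above every control, with a gap much wider than the spread inside either group. Nplp1 rose 1.302-fold, or 0.38 in log2 (95% interval 0.30 to 0.47, SE 0.043), with an edgeR adjusted p of 1.47e-11. It passed in each of 15 other fits, with log2 fold changes between 0.36 and 0.40. Of the 4 measured neuropeptide genes on 2R, the arm that carries lola and the deficiency, Nplp1 alone passed. Of the 24 tested neuropeptide genes on other arms 1 did, Burs. The share of all tested genes that passed was not computed by arm, so these counts do not compare the arms.

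In the thoracic apterous clusters, Nplp1 and FMRFa mark different peptidergic neurons, and dimm acts in their specification. FMRFa, the precursor of several FMRFamide-related peptides on 2R, had 6.06, 5.45 and 6.77 CPM in mutants, against 5.88, 6.53 and 6.57 CPM in controls, with overlapping groups and a log2 fold change of -0.043 (SE 0.12). The factor gene dimm had 3.00, 3.01 and 2.82 CPM in mutants, against 3.47, 2.95 and 2.52 CPM in controls, and again the groups overlapped (log2 fold change -0.033, SE 0.18). Neither gene passed edgeR, with adjusted p of 0.822 for FMRFa and 0.906 for dimm.

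The ecdysis peptides direct the shedding of the old cuticle and the tanning of the new one. Burs and Pburs encode the subunits of bursicon, a heterodimer that acts through the receptor encoded by rk. Burs (3R, 21769518 to 21770279, plus strand) had 4.83, 4.196 and 3.76 CPM in mutants 1 to 3, against 3.52, 2.91 and 2.92 CPM in controls 1 to 3. All mutants lay above all controls, but mutant 3 and control 1 were close. Burs rose 1.36-fold, or 0.45 in log2 (95% interval 0.12 to 0.77, SE 0.16), with an edgeR adjusted p of 0.0217. The call rested on 238 counts in the mutants and 194 in the controls. It was lost with DESeq2 (adjusted p = 0.121), with the transcript length offset (0.0940) and without mutant 1 (0.162), control 2 (0.0844) or control 3 (0.0617).

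The partner subunit Pburs pointed the other way without passing. Pburs (2L, 14416729 to 14417331, minus strand) had 0.814, 0.939 and 0.939 CPM in mutants, against 1.43, 1.06 and 1.12 CPM in controls. The groups did not overlap, yet they held only 50 counts in mutants and 75 in controls. The log2 fold change of Pburs had a 95% interval from -1.02 to 0.17 around -0.43 (SE 0.30), and edgeR gave an adjusted p of 0.262. The receptor gene rk fell, with 6.16, 5.51 and 5.73 CPM in mutants, against 7.63, 7.89 and 8.47 CPM in controls, or -0.46 in log2 (SE 0.12), with an edgeR adjusted p of 0.00113. All 3 mutants were below all 3 controls. An exon of rk overlaps NimC2 on the opposite strand.

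The other ecdysis peptides did not pass. ETH, whose peptides start the ecdysis sequence from the endocrine Inka cells, had 7.33, 5.26 and 7.51 CPM in mutants, against 5.78, 7.496 and 5.22 CPM in controls, and the samples were fully mixed (log2 fold change 0.12, SE 0.13). Eh encodes eclosion hormone and had 2.03, 2.63 and 1.83 CPM in mutants, against 2.22, 2.43 and 2.41 CPM in controls (log2 fold change -0.14, SE 0.21). CCAP, crustacean cardioactive peptide, made in neurons that partly also make bursicon, had 3.05, 3.13 and 1.58 CPM in mutants, against 1.94, 2.03 and 2.36 CPM in controls. Mutant 3 was the lowest sample of all and the other mutants were the highest, and without mutant 3 CCAP passed edgeR (log2 fold change 0.56, adjusted p = 0.0402). With all samples CCAP stood at 0.28 in log2 (SE 0.22), with an edgeR adjusted p of 0.313. Exons of ETH and CCAP overlap genes on the opposite strand.

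**Figure D3:**
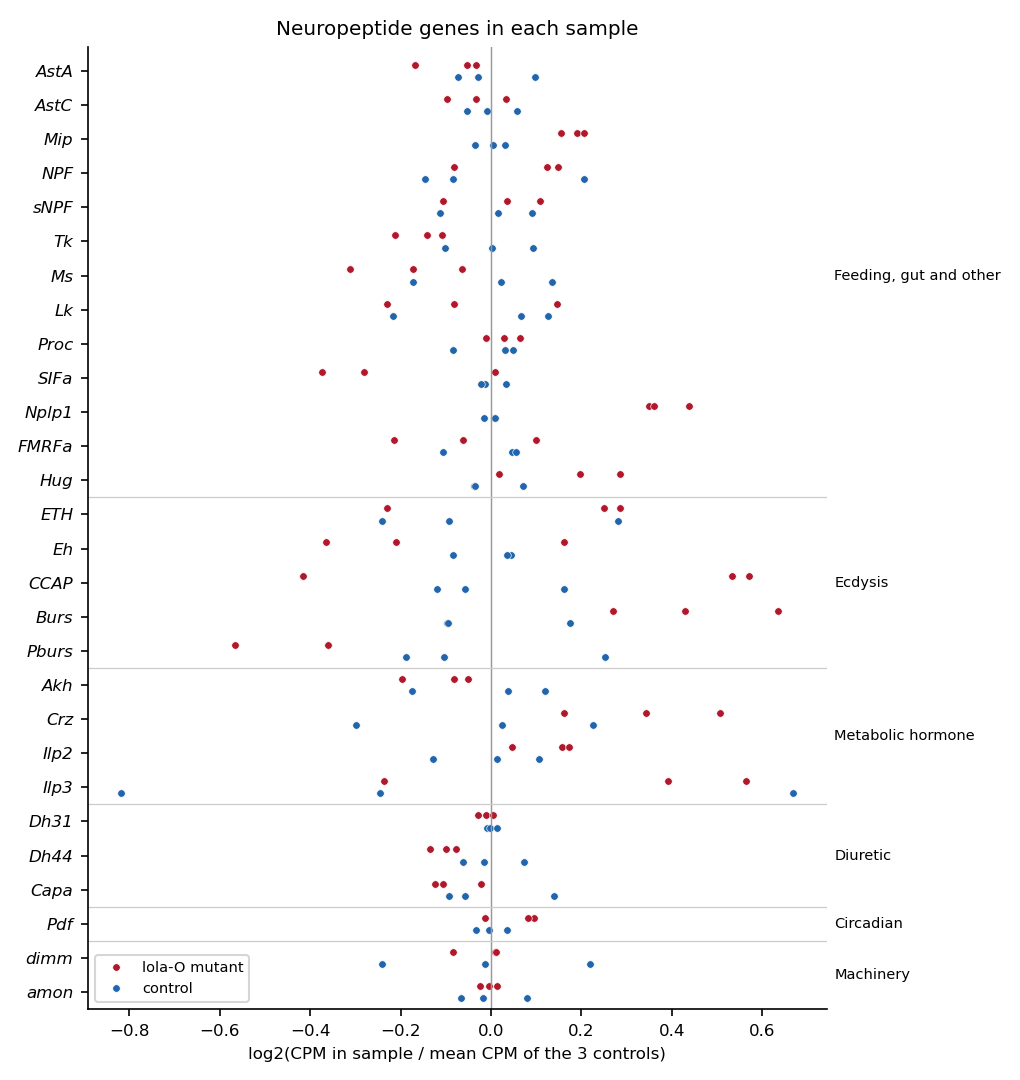
Each point is 1 sample, as log2 of its CPM over the mean CPM of the 3 controls, with mutants (red) above controls (blue) in each row and genes grouped by role. Nplp1 shows the mutants well apart from the controls, Mip and Burs narrowly so, and Tk, Pburs and Dh44 have all mutants below all controls.

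Across the 28 genes, groups failed to overlap as CPM for 3 genes with mutants higher (Mip, Nplp1 and Burs) and 3 with mutants lower (Tk, Pburs and Dh44). As TPM, all mutants also lay below all controls for Dh31 and SIFa. Both overlapped as CPM and did not pass edgeR (adjusted p = 0.889 and 0.332). Dh31 had 52.9 to 53.4 TPM in mutants and 55.0 to 57.6 TPM in controls. SIFa had 8.44 to 10.8 TPM in mutants and 11.1 to 11.3 TPM in controls. Over all tested genes 24.1% were apart as CPM with mutants higher and 23.7% with mutants lower, 47.8% in all. The share of all tested genes apart as TPM was not computed, so Dh31 and SIFa have no such comparison.

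Among peptides of gut and brain, Mip, Tk and Ms came closest to the threshold. Mip encodes myoinhibitory peptides and had 16.1, 16.5 and 16.7 CPM in mutants, against 14.5, 14.8 and 14.1 CPM in controls, with every mutant higher (log2 fold change 0.18, SE 0.078, edgeR adjusted p = 0.0561). Mip passed when only genes of at least 5 CPM in 3 samples were tested (0.0454, edgeR adjusted). Tk, the tachykinin precursor of brain and midgut, had 19.5, 19.0 and 18.1 CPM in mutants, against 22.4, 21.0 and 19.6 CPM in controls. Mutant 1 and control 3 almost met (log2 fold change -0.16, SE 0.070, edgeR adjusted p = 0.0657), and without control 3 Tk passed (edgeR adjusted p = 0.0261). Ms, which encodes the muscle-relaxing peptide myosuppressin, had 17.96, 19.4 and 16.3 CPM in mutants, against 17.95, 20.6 and 22.2 CPM in controls, so the groups overlapped (log2 fold change -0.18, SE 0.076, edgeR adjusted p = 0.0508). Ms passed edgeR without mutant 2 (adjusted p = 0.0258) and without control 1 (0.00773).

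Several abundant gut and brain precursors had narrow intervals around a ratio of 1. AstC had 32.2, 30.8 and 33.8 CPM in mutants, against 32.8, 31.8 and 34.3 CPM in controls, and a 95% interval of 0.908 to 1.06 for the ratio of mutant over control. Proc, the proctolin precursor, had 37.7, 36.8 and 35.8 CPM in mutants, against 36.9, 34.0 and 37.3 CPM in controls (interval of the ratio 0.948 to 1.10). Short neuropeptide F, encoded by sNPF and active in feeding and growth, had 33.2, 36.6 and 38.5 CPM in mutants, against 38.1, 33.1 and 36.2 CPM in controls (0.934 to 1.09). The groups overlapped for each of these genes.

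AstA, another allatostatin precursor, had 23.8 ± 1.18 CPM in mutants and 25.2 ± 1.56 CPM in controls (SD, n = 3 each), and NPF had 7.29 ± 0.620 CPM in mutants and 6.96 ± 0.931 CPM in controls. Hug, which encodes a pyrokinin of feeding circuits, had 10.6 ± 0.986 CPM in mutants and 9.40 ± 0.410 CPM in controls. Lk, the leucokinin precursor, had 4.11 ± 0.547 CPM in mutants and 4.24 ± 0.521 CPM in controls, and SIFa had 2.92 ± 0.414 CPM in mutants and 3.36 ± 0.0690 CPM in controls. Their log2 fold changes lay between -0.22 for SIFa and 0.17 for Hug, each with edgeR adjusted p of 0.177 or more. Exons of Lk and SIFa overlap genes on the opposite strand. The gene amn, known from memory mutants, had 1, 2 and 3 counts in mutants and 1, 0 and 2 in controls, at or below the 3 counts that a library with no count allows, so its level was not measurable at this depth.

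The diuretic hormones act on the Malpighian tubules. Dh31 had 40.5, 41.0 and 41.4 CPM in mutants, against 41.0, 41.2 and 41.6 CPM in controls. As CPM the samples of both groups interleaved, and the ratio of mutant over control had a 95% interval of 0.926 to 1.06. Dh44, a relative of corticotropin-releasing factor, had 21.0, 21.3 and 20.4 CPM in mutants, against 21.5, 23.6 and 22.2 CPM in controls. All 3 mutants were lower, but the difference did not pass (log2 fold change -0.11, SE 0.067, edgeR adjusted p = 0.211). Capa, the source of capability peptides, had 6.31, 5.95 and 5.88 CPM in mutants, against 6.15, 7.05 and 6.004 CPM in controls (log2 fold change -0.088, SE 0.12).

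Hormones of energy balance did not pass either. Akh, the adipokinetic hormone of the corpora cardiaca, which mobilizes stored fuel, had 7.07, 7.83 and 7.66 CPM in mutants, against 8.33, 7.19 and 8.81 CPM in controls (log2 fold change -0.10, SE 0.11). Crz, corazonin, had 3.82, 3.01 and 3.41 CPM in mutants, against 3.15, 2.73 and 2.19 CPM in controls. Mutant 2 lay below control 1, so the groups overlapped (log2 fold change 0.34, SE 0.18, edgeR adjusted p = 0.129). Ilp2, made in the insulin-producing cells of the brain, had 11.6, 12.5 and 12.6 CPM in mutants, against 12.1, 10.3 and 11.3 CPM in controls (log2 fold change 0.13, SE 0.091). Ilp3 had 31 counts in mutants and 29 in controls, and its interval of the ratio, 0.653 to 2.16, was the widest of the 28. Ilp5 had 0 counts in each mutant library and 1, 0 and 1 in the controls, which gives no fold change.

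Pdf, the peptide of the circadian clock neurons (3R, 26455462 to 26456141), had 4.07, 4.38 and 4.35 CPM in mutants, against 4.21, 4.01 and 4.10 CPM in controls, with overlapping groups (log2 fold change 0.054, SE 0.15). The convertase gene amon, known also as PC2, had 94.3, 93.1 and 91.9 CPM in mutants, against 92.3, 98.7 and 89.2 CPM in controls. All mutants fell inside the range of the controls, and the ratio had a 95% interval of 0.943 to 1.05. Of the 26 genes that did not pass, 22 had a 95% interval inside 1.5-fold in either direction, so that larger changes lay outside it. For the other 4, CCAP, Pburs, Crz and Ilp3, the interval reached past 1.5-fold, so these values do not exclude a difference of that size.

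**Figure D4:**
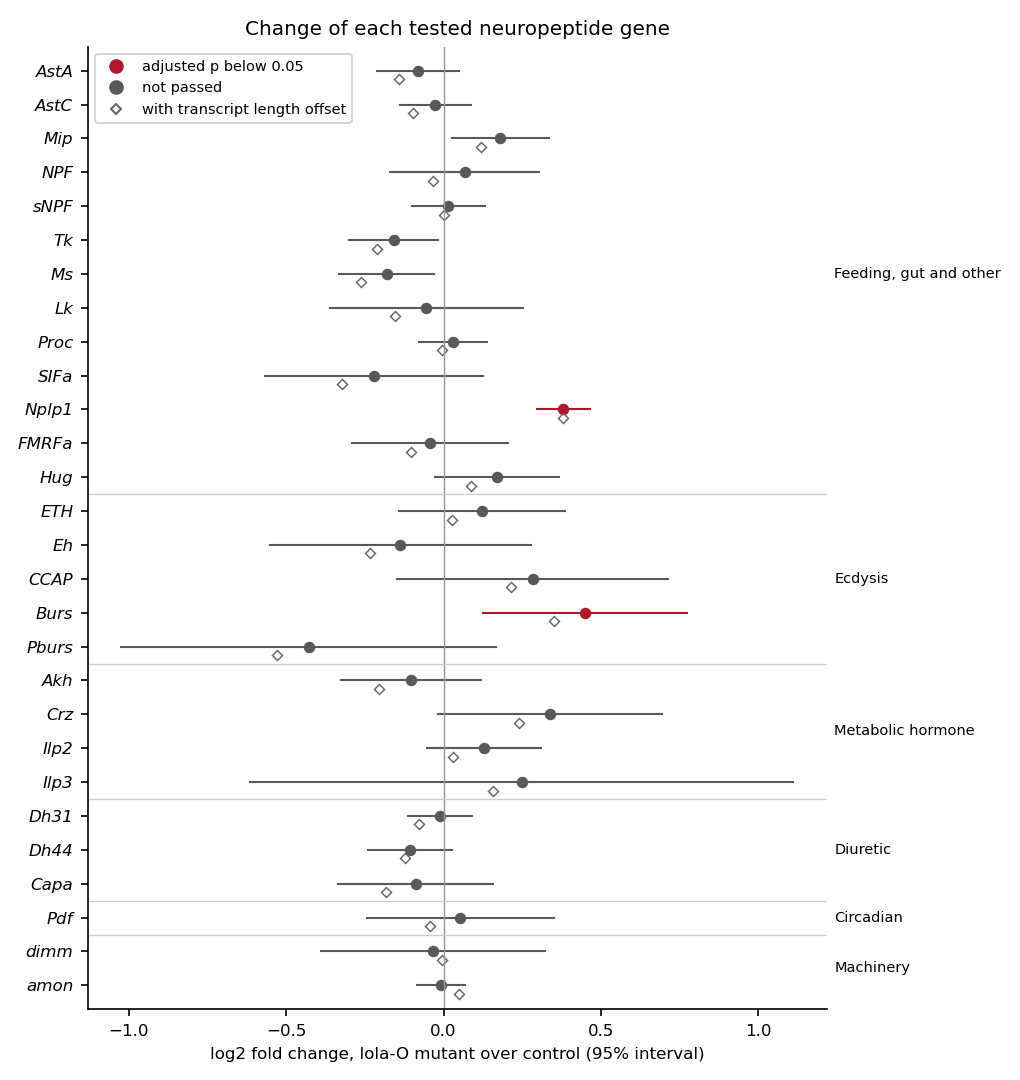
Points are log2 fold changes of mutant over control with 95% intervals from edgeR, red where the adjusted p was below 0.05, and open diamonds are the values with the transcript length offset. Nplp1 and Burs are red, the offset moves most precursors to the left, and the intervals are wide for Ilp3 and Pburs.

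Most precursors are short transcripts, so the fit was repeated with an offset for transcript length. No slope of the fold changes on length was computed. The median of the longest annotated transcript was 1049 bases for the 28 genes and 2001 bases for all tested genes. An offset that removed the trend of each sample on length lowered the median log2 fold change of the 28 genes to -0.038, and 31.6% of 10110 genes then passed, 16.7% higher and 14.9% lower. Under it Nplp1 was higher, Ms (-0.26, edgeR adjusted p = 0.00466) and Tk (-0.21, edgeR adjusted p = 0.0133) were lower, and Burs no longer passed.

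Of 38 tested receptor genes of these and other peptides, 0 rose, 9 fell and 29 did not pass. The share that passed was 23.7%, all lower, beside 39.7% of all tested genes (20.2% of all higher, 19.5% of all lower). The receptor genes had a median log2 fold change of -0.16, against 0.0010 over all tested genes, and 33 of the 38 were below 0. At an unadjusted edgeR p under 0.05, 13 were lower and 0 higher, beside 2349 lower and 2439 higher of all 10312 tested genes. DESeq2 called 6 receptor genes lower and 0 higher, beside 1476 lower and 1529 higher over all genes. AkhR, the receptor of adipokinetic hormone in fat body and other tissues, had 6.51, 7.01 and 5.98 CPM in mutants, against 9.86, 9.74 and 8.70 CPM in controls, with the groups well apart (-0.55 in log2, SE 0.11, edgeR adjusted p = 3.496e-05). Pdfr, the receptor of the clock peptide, had 5.45, 5.07 and 4.84 CPM in mutants, against 6.66, 6.97 and 7.41 CPM in controls (-0.45, SE 0.13, edgeR adjusted p = 0.00258). PK2-R2, a receptor of hugin pyrokinin, had 16.5, 17.1 and 16.3 CPM in mutants, against 21.1, 18.6 and 22.4 CPM in controls (-0.31, SE 0.074, edgeR adjusted p = 4.35e-04). These 3 genes and rk passed in each of 15 other fits.

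The other receptors that passed, named after their values were seen, were CCKLR-17D3 (-0.48), TkR99D (-0.28), Dh44-R2 (-0.22), Proc-R (-0.17) and sNPF-R (-0.16). CCKLR-17D3, a receptor of drosulfakinin, passed in all 15 other fits. TkR99D lost its call with DESeq2 (adjusted p = 0.103) and without mutant 2 or control 3 (at most 0.168), and Dh44-R2 lost it without control 1 (0.0629). The calls of sNPF-R and Proc-R were lost in 9 and 10 of the 15 fits, among them DESeq2, the length offset and most of the fits that left out a sample. Exons of Dh44-R2 overlap genes on the opposite strand. With the offset 8 receptor genes were lower and 0 higher, and the median log2 fold change of the tested receptors was -0.12. InR was not analysed here.

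The lower receptors can be set beside their ligands. Of 27 textbook pairs of precursor and receptor, 8 had a receptor that passed and a precursor that did not. In 1, Burs and rk, both passed, in opposite directions. The gene rk was counted with Burs and again with Pburs, so these pairs held 8 lower receptors, of 25 tested. Akh was at -0.10 (SE 0.11) and AkhR at -0.55 (SE 0.11), Pdf at 0.054 (SE 0.15) and Pdfr at -0.45 (SE 0.13), and Hug at 0.17 (SE 0.099) and PK2-R2 at -0.31 (SE 0.074), all log2 fold changes. Dh31 and Dh31-R were both near 0, at -0.011 (SE 0.050) and -0.045 (SE 0.057). The median transcript length was 894 bases for the tested precursors of the set and 3037 bases for the tested receptors. With the length offset Akh stood at -0.21 and AkhR at -0.54, and Pdf at -0.043 and Pdfr at -0.42. Hug then stood at 0.086 and PK2-R2 at -0.30, and Dh31 and Dh31-R at -0.077 and -0.017. The difference between a precursor's change and its receptor's was not tested.

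**Figure D5:**
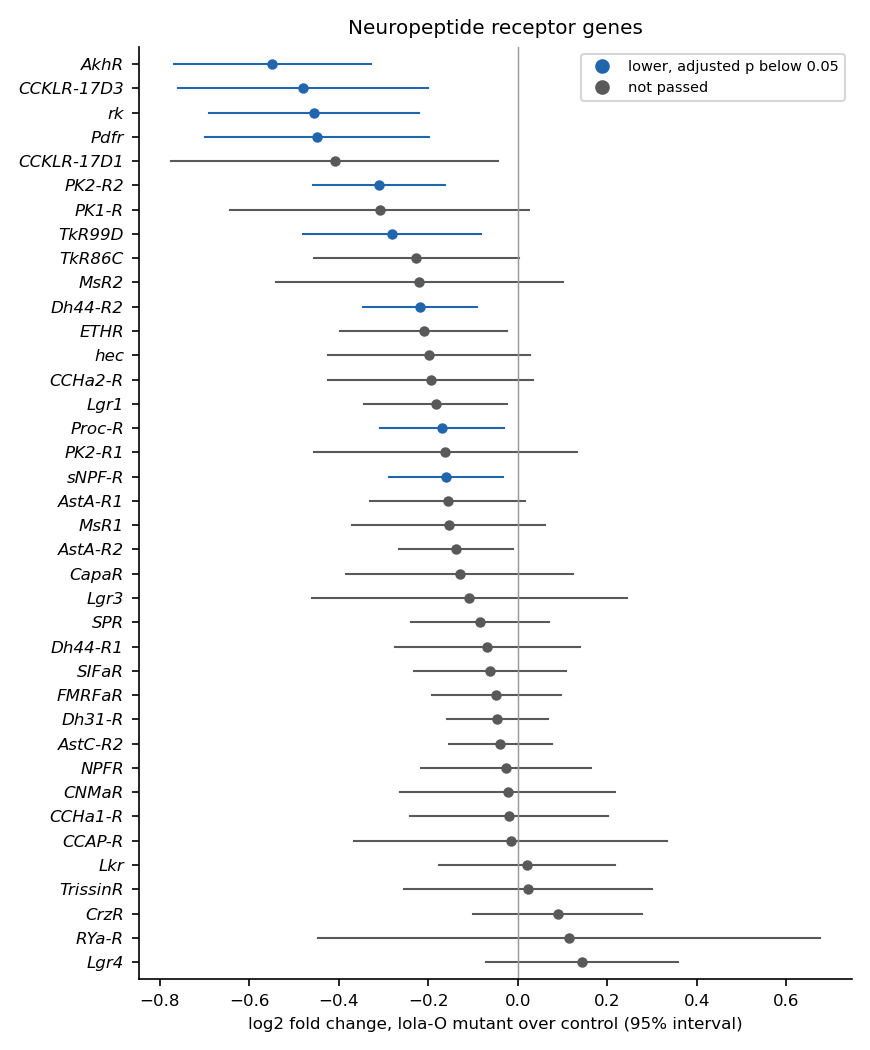
Points are log2 fold changes of mutant over control with 95% intervals for the 38 tested receptor genes, ordered by value. The 9 genes that passed, in blue, all lie below 0, and AkhR is at the top.

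Of the 14 tested peptide precursors outside the set, 1 rose, 4 fell and 9 fell short of the threshold (35.7% passed, median log2 fold change 0.085). Of all tested genes 39.7% passed. Ilp6, an insulin-like gene of fat body, had 4.43, 4.76 and 4.59 CPM in mutants, against 6.99, 7.45 and 8.98 CPM in controls, or -0.76 in log2 (SE 0.13), with an edgeR adjusted p of 1.404e-06. Every mutant was far below every control. Ilp4, an insulin-like gene of the embryo, rose, with 1.78, 1.63 and 1.14 CPM in mutants, against 0.972, 0.529 and 0.673 CPM in controls (log2 fold change 1.05, SE 0.30, edgeR adjusted p = 0.00366). CNMa was lower at -0.53 in log2 (edgeR adjusted p = 0.0107), ITP, the ion transport peptide gene, at -0.15 (0.00857) and CCHa2, a nutrient-linked peptide gene named after its value was seen, at -0.16 (0.0246). Ilp6 passed in all 15 other fits and Ilp4 in the 14 that tested it. CNMa lost its call without mutant 1 or control 2, and CCHa2 without mutant 2, mutant 3, control 1 or control 3. DESeq2 did not call CNMa (adjusted p = 0.0794), ITP (0.0521) or CCHa2 (0.125). ITP also lost its edgeR call with the length offset (adjusted p = 0.0767), alone and with the replicate block. An exon of ITP overlaps a gene on the opposite strand, as do exons of the enzyme genes QC and Pal2.

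Among 14 tested genes of enzymes that mature or degrade peptides, 2 rose, 5 fell and 7 fell short, so 7 of 14 passed, beside 39.7% of all tested genes. With the length offset 3 were higher and 3 lower, and the carboxypeptidase gene svr, named after its values were seen, was among the higher ones (0.0023 without the offset, 0.11 and edgeR adjusted p = 0.00275 with it). QC, glutaminyl cyclase, which forms the blocked amino end of some peptides, was higher at 0.28 in log2 (edgeR adjusted p = 4.21e-04), and the peptidase gene Ance at 0.13 (3.54e-04). The furin-like protease gene Fur2 had 74.5, 76.3 and 73.2 CPM in mutants, against 86.4, 89.6 and 84.6 CPM in controls, or -0.22 in log2 (edgeR adjusted p = 3.66e-06), and the neprilysin gene Nep4 had -0.28 (9.43e-05). With the offset Fur2 stood at -0.11 (edgeR adjusted p = 0.0168). Pal2, for a lyase of the amidation pathway, had -0.15 (edgeR adjusted p = 0.00247) and is named here after its value was seen, beside amon. The amon helper gene 7B2 had 0.097 (SE 0.053, edgeR adjusted p = 0.139).

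Among 15 tested genes of dense core vesicles and their transport, 2 rose, 6 fell and 7 fell short (53.3% passed). Of all tested genes 39.7% passed, 20.2% higher and 19.5% lower. With the length offset 2 vesicle genes were higher and 3 lower, beside 16.7% and 14.9% of all. The Munc13-related gene stac had -0.28 (edgeR adjusted p = 3.84e-07), the kinesin gene unc-104 -0.16 (4.30e-06), Rab2 -0.14 (0.00131) and Cadps, which primes dense core vesicles, -0.12 (0.00180). With the offset stac and Rab2 remained lower at -0.23 and -0.18, whereas unc-104 and Cadps no longer passed edgeR (adjusted p = 0.742 and 0.701). IA-2, a vesicle membrane protein gene named after its values were seen, was lower at -0.093 without the offset and higher at 0.082 with it, and passed edgeR both ways (adjusted p = 0.00204 and 0.00469). Of 18 tested transcription factor genes of peptidergic cells, 0 rose and 4 fell by edgeR (0 higher and 5 lower at an unadjusted p under 0.05), pros, zfh1, chn and tsh, and with the offset 1 was higher and 0 lower. The higher one was Abd-B, named after its values were seen, at 0.16 (edgeR adjusted p = 0.00963). Without the offset pros, zfh1, chn and tsh had log2 fold changes of -0.32, -0.17, -0.13 and -0.14, in that order.

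Markers of neurons and of other cell types were counted in the same fit, in which 20.2% of all tested genes were higher and 19.5% lower. At an unadjusted edgeR p under 0.05, 2439 of all 10312 were higher and 2349 lower. With the length offset 16.7% of all were higher and 14.9% lower. The median of the mean CPM was 214 for neuron, 192 for midgut, 64.6 for glia and 2937 for muscle markers, against 23.3 for all tested genes. Of 14 tested neuron markers 0 rose and 7 fell by edgeR (0 higher and 8 lower at an unadjusted p under 0.05), with summed levels of 3394 to 3588 CPM in mutants and 3636 to 3712 CPM in controls, and with the length offset 3 rose and 1 fell. Of 11 midgut markers 4 rose and 5 fell (2078 to 2144 CPM in mutants, 2089 to 2139 CPM in controls), and with the offset 5 were higher and 6 lower. Their summed TPM was 3092 to 3297 in mutants and 3347 to 3564 in controls, with all mutants below all controls. Of 10 glia markers 2 rose and 3 fell (910 to 926 CPM in mutants, 934 to 954 CPM in controls), and with the offset 1 was higher and 3 lower. Of 9 muscle markers 1 rose and 6 fell (28950 to 29470 CPM in mutants, 32700 to 32870 CPM in controls). With the offset 1 muscle marker was higher and 6 lower, and their median log2 fold change moved from -0.20 to -0.063. The higher one was sls, named after its values were seen, at -0.31 without the offset and 0.065 with it. Of 7 fat body markers with counts, 5 were below the filter, among them Fbp1 and Lsp2, and apolpp was lower at -0.14 in log2 but higher at 0.057 with the offset. The part of these shifts in the values of single neuropeptide genes was not tested.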

How the data were processed

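The authors deposited raw counts, 1 whole number for each FlyBase gene and sample, without normalization. The submitters' processing notes list, with no role or order, build BDGP6 and the tools Subread 1.5.1, STAR 2.5.2b, bedtools 2.25.0 and SAMtools 1.3.1. Neither the strand setting nor the treatment of multi-mapped reads is given in the sources used, so genes that overlap others are uncertain. Symbols, positions and lengths came from Ensembl release 115 (BDGP6.54), which matched 17253 of 17559 identifiers.

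The main fit of the 6 count columns used edgeR 4.0.16 under R 4.3.3, with TMM scaling, filterByExpr, robust quasi-likelihood, no replicate term and a 2-sided test, adjusted by Benjamini-Hochberg over 10312 genes. The code was first tested on simulated data. The SE is the log2 fold change over the square root of F, and 95% intervals use the moderated degrees of freedom. A count of 0 allows up to 3 counts, 0.132 to 0.188 CPM, for counting error only. Replicates differed by more than sampling noise, with chi-square over its degrees of freedom between 1.94 and 6.14. The length offset is a lowess trend (span 0.3) on log2 transcript length in each sample. Other settings were RLE and upper-quartile scaling, other filters, DESeq2 1.42.0, limma-voom (limma 3.58.1), a replicate block, leaving out each sample and a threshold of 0.01.

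All 31 members are named where measured, and up to 4 genes of each other list by smallest adjusted p, with exceptions marked. The members, lists and settings were chosen with earlier results of these data known. Protein sequences were not used here.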

Additional observations from a re-analysis of the deposited data

How the results depend on the processing

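Over the alternatives, 369 fold changes of neuropeptide genes kept direction and side of the threshold, 11 newly passed, 6 no longer passed and 24 changed sign, none of these last passing. Neuropeptide genes called higher numbered 1 with DESeq2, with the length offset, with the offset plus replicate block and at a threshold of 0.01. Those called lower numbered 1 with RLE scaling, 1 with no low-count filter, and 2 with the offset, with or without the block. Other precursors called higher numbered 2 with the replicate block, and those lower 1 with DESeq2 and 2 at 0.01. Enzymes called lower numbered 3, and dense core vesicle genes lower 3, with the offset, with or without the block. Dense core vesicle genes called higher numbered 0 with DESeq2 and at 0.01. With 1 sample left out, neuropeptide genes numbered 1 to 3 higher and 0 to 1 lower, other precursors 1 to 2 higher and 3 lower, receptors 0 higher and 6 to 10 lower, and vesicle genes 0 to 2 higher. The cause of these shifts was not tested.

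Signs turned with the length offset for NPF (-0.033), Proc (-0.0033), Pdf (-0.043) and amon (0.048), and with offset and block for NPF (-0.027), sNPF (-0.0028), Proc (-0.0056), Pdf (-0.043), dimm (0.0057) and amon (0.052). With 1 sample left out, log2 fold changes ran from -0.058 to 0.0045 for AstC, -0.0064 to 0.20 for NPF, -0.038 to 0.076 for sNPF, -0.17 to 0.037 for Lk, -0.0078 to 0.053 for Proc, -0.13 to 0.025 for FMRFa, -0.061 to 0.78 for Ilp3, -0.13 to 0.089 for dimm and -0.038 to 0.040 for amon.

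Same-numbered samples showed correlations of 0.0225, -0.0276 and 0.0425, so the numbers, which the controls carry in their titles only, were not treated as pairs. With the replicate block 2083 genes were higher and 1994 lower over all tested genes, and neuropeptide genes stayed at 2 higher and 0 lower.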

Other observations

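The ratio of the bursicon subunits was computed after the values of both genes had been seen. Burs over Pburs, as a ratio of TPM, was 5.06, 3.80 and 3.41 in mutants 1 to 3, against 2.09, 2.34 and 2.21 in controls 1 to 3. It averaged 4.09 ± 0.861 in mutants and 2.21 ± 0.127 in controls (SD, n = 3 each), and all 3 mutants lay above all 3 controls. An exact permutation test of the ratio gave p = 0.1, the smallest value possible with 3 samples per group. Both genes were already known to be apart in opposite directions, which fixed that outcome. The separation of the ratio is therefore a description only. Pburs had at most 31 counts in a library.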
